A study of Mus musculus with 24 samples.

Results

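The comparison described here sets the ileum of C57BL/6N mice that ate a control diet and drank metformin (CDmetf, n = 6) against the ileum of mice that ate a high-fat diet without the drug (HFD, n = 6). These 12 libraries were taken, by their sample labels, from 24 libraries in 4 groups, and the groups share no control libraries. CDmetf mice received a diet with 10 kcal% fat for 20 weeks and then 50 mg/kg body mass/day of metformin in drinking water for 10 weeks, while HFD mice received a diet with 60 kcal% fat and no metformin. Diet and drug therefore differ together, and the part of each cannot be told apart in this contrast. Mice of the inbred C57BL/6N strain were 4 to 5 weeks old when the diets began, 3 males (M) and 3 females (F) formed each group, each library came from 1 animal, and the distal small intestine was sequenced as whole tissue after removal of ribosomal RNA. The other groups, control diet alone (CD) and high-fat diet with metformin (HFDmetf), entered the model to estimate the spread. Levels in both, and contrasts against CD, are given beside a few genes and lists.

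The ileum is the last segment of the small intestine. Its enterocytes take up bile acids, while most dietary fat and sugar is absorbed further up. Absorbed fatty acids are bound inside the cell, esterified, packed with apolipoproteins into chylomicrons and exported, or they are burnt in mitochondria and peroxisomes under the control of the receptor PPAR alpha, for which fatty acids are ligands. Cholesterol is made by a chain of enzymes whose genes are switched together by the sterol-sensing factor SREBP-2. The ileal wall also holds much of the body's immune tissue, with B cell follicles in Peyer's patches and plasma cells that secrete IgA. Metformin is a biguanide used against type 2 diabetes that accumulates in the gut wall and activates the energy sensor AMPK.

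Each CDmetf library held between 2929631 and 40384234 reads assigned to genes and each HFD library between 2322210 and 40606442, so that 3 reads corresponded to between 0.0722 and 1.33 CPM (normalized counts scaled to a common library size) over the 12 libraries. The library labelled HFD M2 had 3355 reads of Xist, the transcript of the inactive X chromosome, and 0 reads of 4 Y-linked genes, and the library labelled HFD F2 had 1 and 423, so both went against their sex labels. Counts and the results that they moved most are given with and without them. In CD, the library CD M3 had 85.4% of its reads in 10 genes and a normalization factor of 0.192. That share was 9.22% to 16.8% in CDmetf and 9.48% to 19% in HFD. Without CD M3, 0 genes differed between CDmetf and HFD at a false discovery rate under 0.05 and 1070 at an unadjusted p under 0.05 (edgeR). The CD levels and contrasts given below include CD M3 and were not recomputed without it. Markers of gut position also differed between libraries. Fabp6, the ileal bile acid-binding protein that marks the labelled tissue, was between 325 and 2618 CPM in 10 libraries but 35.2 in CDmetf F1 and 0.841 in HFD M3, where this marker was close to absent. Lct, the lactase of the upper small intestine, was 0.904, 30.1 and 2527 CPM (lowest, median and highest) in CDmetf and 429, 1316 and 2967 CPM in HFD.

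The test found no gene that differed between CDmetf and HFD across the whole table. Of 13505 genes tested with edgeR's quasi-likelihood test, 0 passed a false discovery rate (FDR) of 0.05, which is 0% of those tested, and the smallest FDR was 0.635. At an unadjusted p under 0.05 there were 329 genes higher in CDmetf, 2.44% of those tested, and 655 lower, 4.85%. limma-voom also called 0 genes at FDR under 0.05, with 954 at an unadjusted p under 0.05, and DESeq2 called 6, Acta1, Pak2, Gm47528, Tfcp2l1, Igkv5-48 and Xist, the last being the transcript by which the HFD libraries labelled M2 and F2 went against their labels. Individual differences below are accordingly given as levels and log2 fold changes (logFC, CDmetf minus HFD, so that a negative value is lower in CDmetf), and counts within a gene list are read against these shares. The median logFC of all genes tested was -0.017.

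Of the marker genes named for this comparison, the clearest contrast was in Apoa4, the apolipoprotein that enterocytes put on chylomicrons after a fatty meal. Its level was 29.4, 139 and 3211 CPM (lowest, median and highest) in CDmetf and 88.6, 2461 and 6723 CPM in HFD. Only CDmetf F1 was high among the drug-treated mice, and HFD M2 and HFD F3 were low among the fat-fed mice, so the groups overlapped. Each of these libraries had many reads of Xist (2634, 3355 and 42653), the female pattern. By the sex labels, the logFC of Apoa4 in males minus that in females was -4.26 (FDR = 0.964, edgeR). Whether the Apoa4 contrast differs by sex as read from these transcripts was not tested. Apoa4 (chr9:46240696-46243459, plus strand, GRCm38) had a logFC of -2.80 ± 0.94 (SE), equal to a level 6.95-fold higher in HFD, with FDR = 0.667, and it was lower in CDmetf in 5 of 6 pairs labelled with the same sex and replicate number. Such tallies describe direction only, since the M2 and F2 pairs hold the HFD libraries that go against their sex labels and the numbers were not shown to pair the animals. Without the HFD libraries labelled M2 and F2 the logFC of Apoa4 was -2.45 (FDR = 0.999, edgeR), and with a term for gut position it was -1.23. In CD and HFDmetf the median levels of Apoa4 were 97.6 and 527 CPM.

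Cyp4a10, a fatty acid hydroxylase and a textbook target of PPAR alpha, was near 0 in 5 of 6 CDmetf libraries. Cyp4a10 was at 0, 0.113 and 7.83 CPM in CDmetf and at 0, 2.81 and 4.63 CPM in HFD. The high value among the drug-treated mice was again CDmetf F1, and the library labelled HFD M2 had 0 reads of it, which at its depth allows up to 0.979 CPM (3 reads, counting error only). The logFC was -1.62 ± 0.86 (SE, FDR = 0.697), and that of Cyp4a10 became -3.76 without CDmetf F1, -1.13 without HFD M3 and -1.81 without the HFD libraries labelled M2 and F2. Reads shared with the near-identical neighbours Cyp4a31 and Cyp4a32, themselves at or below 1.26 CPM in these libraries, make the level of Cyp4a10 uncertain.

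Tnfrsf13b, which encodes TACI, a receptor through which B cells are driven to make IgA, showed no such contrast. Its level was 1.47, 6.76 and 13.1 CPM in CDmetf and 3.34, 7.14 and 14.4 CPM in HFD. The groups covered nearly the same range. Its sign turned when CDmetf M2 (logFC = 0.03) or HFD F1 (0.02) was left out. The logFC of Tnfrsf13b was -0.16 ± 0.34 (SE), and its 95% interval, from -0.87 to 0.54, lay within 1 log2 unit of no difference.

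**Figure D1:**
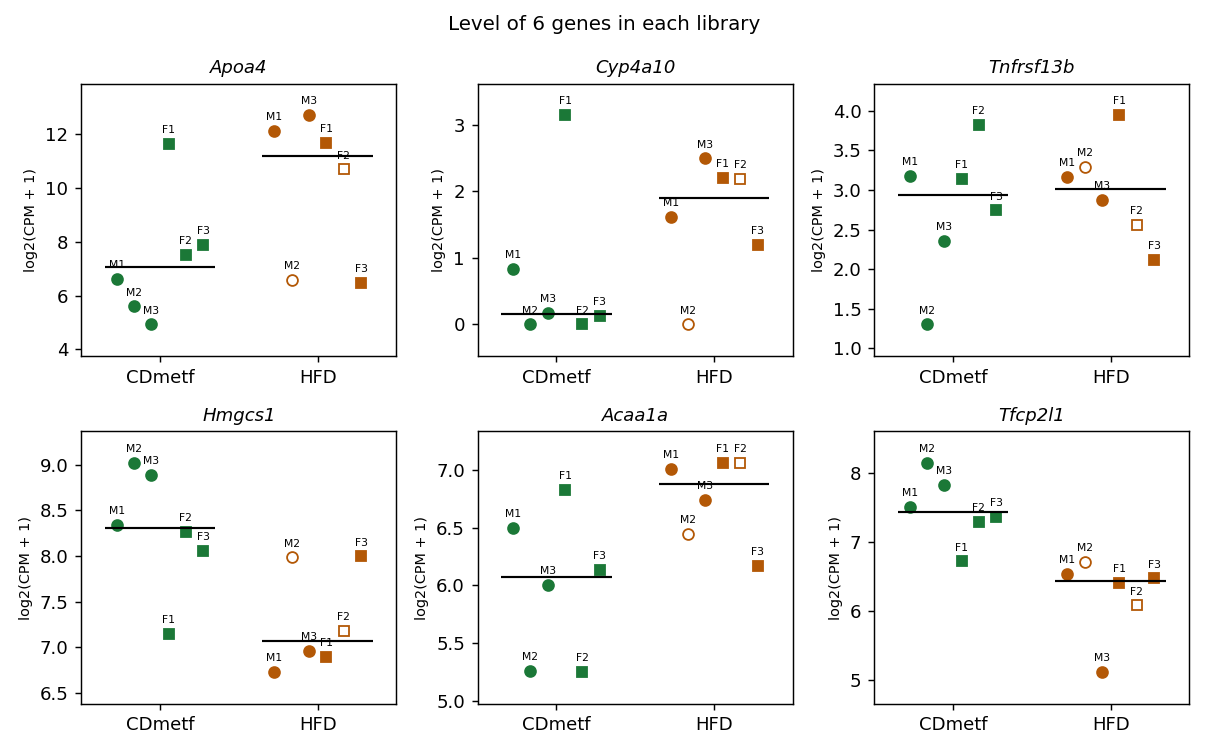
Level of 6 genes in each of the 12 libraries, as log2(CPM + 1), for CDmetf (green) and HFD (orange), with circles for libraries labelled male, squares for female, open symbols for the HFD libraries labelled M2 and F2, and a bar at the group median. Apoa4 and Cyp4a10 were low in 5 CDmetf libraries and high in CDmetf F1, and Tnfrsf13b covered the same range in both groups. Only Tfcp2l1 had groups that did not overlap, by a gap within counting error (321 reads in CDmetf F1 and 319 in HFD M2).

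Genes that handle absorbed fat mostly had a negative logFC, although 0 passed FDR under 0.05. Of 62 genes in 3 lists (apolipoproteins and chylomicron assembly, fatty acid uptake and binding, and fatty acid oxidation with PPAR targets), 58 were tested and 55 had a negative logFC, with a median of -0.46. Of all 13505 genes tested, 7159 had a negative logFC. At an unadjusted p under 0.05, 0 were higher and 18 lower in CDmetf, against 2.44% and 4.85% of all genes tested. The number lower at that p fell to 8 without the library labelled HFD F2 or without CDmetf M3, to 10 without CDmetf M2, and reached 30 without CDmetf F1 or without the library labelled HFD M2. It was 13 without both HFD M2 and HFD F2.

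In fatty acid uptake, 6 of 11 genes were lower at an unadjusted p under 0.05, with a median logFC of -0.75. Slc27a2, an acyl-CoA synthetase that activates very long-chain fatty acids, was at 9.96, 20.7 and 70.8 CPM in CDmetf and at 19.9, 53.8 and 82 CPM in HFD (logFC = -1.06 ± 0.28, FDR = 0.635). CDmetf F1 was the only CDmetf library above the HFD median. Fabp2, the intestinal fatty acid-binding protein, had medians of 1911 and 6084 CPM (logFC = -1.57 ± 0.52, FDR = 0.635). Acsl5, which couples fatty acids to coenzyme A for esterification, had a logFC of -1.17 ± 0.44 (FDR = 0.667). Fabp1, the liver fatty acid-binding protein, is within the small intestine made mainly in the upper part and is also a position marker. It had the most negative logFC of the group at -3.63 ± 1.18, which was -2.15 without HFD M3.

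In chylomicron assembly, 5 of 17 tested genes were lower at an unadjusted p under 0.05 and the median logFC was -0.60. Dgat1, which performs the last step of triglyceride synthesis, was at 103, 190 and 391 CPM in CDmetf and at 236, 446 and 472 CPM in HFD. CDmetf F1 and F3 lay inside the HFD range and the other 4 CDmetf libraries lay below it (Dgat1 logFC = -0.86 ± 0.30, FDR = 0.635). Mttp, the lipid transfer protein that loads apolipoprotein B, had a logFC of -1.10 ± 0.46 (FDR = 0.669).

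The 30 tested genes of fatty acid oxidation all had a negative logFC, with a smaller median of -0.35, and 7 were lower at an unadjusted p under 0.05. Acaa1a, a peroxisomal thiolase, was at 37, 66.2 and 113 CPM in CDmetf and at 71, 117 and 133 CPM in HFD, and it was lower in CDmetf in 6 of 6 pairs (logFC = -0.75 ± 0.21, FDR = 0.635). Etfdh, which passes electrons from beta-oxidation to the respiratory chain, was also lower in 6 of 6 pairs (logFC = -0.36 ± 0.13, FDR = 0.635). Acadvl, the first dehydrogenase for long-chain fatty acids in mitochondria, had medians of 43.9 and 70 CPM (logFC = -0.52 ± 0.18, FDR = 0.635, and -0.61 without the library labelled HFD M2). Acaa1b, another peroxisomal thiolase (logFC = -0.73 ± 0.46, and -0.96 without the library labelled HFD M2), did not pass an unadjusted p of 0.05. Over the same lists, the median logFC against the common control CD was 0.11 for CDmetf and 0.50 for HFD in fatty acid oxidation, -0.05 and 0.50 in chylomicron assembly, and -0.08 and 0.62 in fatty acid uptake. Both contrasts share the CD libraries.

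Cholesterol synthesis ran the other way. All 23 genes of the list were tested and had a positive logFC, with a median of 0.71, against 6346 positive of all 13505 genes tested. At an unadjusted p under 0.05, 14 were higher in CDmetf and 0 lower, against 2.44% and 4.85% of all genes tested. Hmgcs1, which condenses acetyl-CoA units at the entry of the pathway, was at 141, 315 and 519 CPM in CDmetf and at 105, 134 and 254 CPM in HFD. It was higher in CDmetf in 6 of 6 pairs (logFC = 1.00 ± 0.25, FDR = 0.635), although CDmetf F1 alone lay inside the HFD range. Nsdhl, a sterol dehydrogenase of the late pathway, was at 20.9, 33.1 and 52.1 CPM and at 14.3, 20.7 and 25.6 CPM, and was higher in 6 of 6 pairs (logFC = 0.74 ± 0.20, FDR = 0.635). Msmo1, the methylsterol oxidase, was at 42.1, 122 and 173 CPM and at 34.5, 52 and 79.2 CPM, and was higher in 4 of 6 pairs (logFC = 1.06 ± 0.31, FDR = 0.635).

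The count of cholesterol genes higher at that p was 13 without the HFD libraries labelled M2 and F2, 9 without CDmetf M2 and 18 without CDmetf F1. Against the common CD libraries, the median logFC of the list was 0.06 for CDmetf and -0.65 for HFD. The median level of Hmgcs1 was 300.2 CPM in CD and 173 in HFDmetf.

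The promoters of these 3 enzymes are printed because their genes lay together in direction. Each sequence runs 5′ to 3′ along the gene, from 250 bases before the start of transcription to 50 after it, and comes from RefSeq on GRCm38.p6. Capitals mark CCAAT, the box bound by NF-Y, read on either strand (ATTGG on the other), and in Hmgcs1 also the single match to TCACNCCAC, the core letters of a sterol regulatory element, searched on both strands; no marked motifs overlap.
Hmgcs1, chr13:119690101-119690400, plus strand: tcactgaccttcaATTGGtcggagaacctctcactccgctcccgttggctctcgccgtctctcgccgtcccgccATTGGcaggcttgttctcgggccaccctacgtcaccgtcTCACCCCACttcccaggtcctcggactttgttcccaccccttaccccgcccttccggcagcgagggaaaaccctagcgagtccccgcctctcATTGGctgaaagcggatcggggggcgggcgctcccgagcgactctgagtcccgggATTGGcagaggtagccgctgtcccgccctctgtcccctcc
Nsdhl, chrX:72918271-72918570, plus strand: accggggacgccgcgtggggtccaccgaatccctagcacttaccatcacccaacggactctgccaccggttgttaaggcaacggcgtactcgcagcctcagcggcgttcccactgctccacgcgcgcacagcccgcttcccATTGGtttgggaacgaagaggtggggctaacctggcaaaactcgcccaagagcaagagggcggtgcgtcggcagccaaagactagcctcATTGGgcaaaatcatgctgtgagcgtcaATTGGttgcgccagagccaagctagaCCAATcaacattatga
Msmo1, chr8:64733529-64733828, minus strand: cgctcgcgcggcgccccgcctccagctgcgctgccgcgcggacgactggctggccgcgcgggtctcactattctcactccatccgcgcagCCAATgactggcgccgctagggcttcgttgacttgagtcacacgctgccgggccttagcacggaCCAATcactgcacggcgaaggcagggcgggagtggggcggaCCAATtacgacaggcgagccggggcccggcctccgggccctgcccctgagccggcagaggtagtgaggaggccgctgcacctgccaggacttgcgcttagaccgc
Of the 23 cholesterol genes, 15 had a promoter in the RefSeq table and 14 of these held CCAAT, 93.3%, against 41.1% of all 27025 genes with a promoter there. TCACNCCAC was in 1 of the 15, 6.67%, and in 1.44% of all genes. In the fatty acid oxidation list, CCAAT was in 11 of 23 genes with a promoter, 47.8%. TCACNCCAC was in 2 of these 23, 8.7%, so it did not set the cholesterol list apart from that list. These are matches of letters, and no binding was measured.

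Markers of gut position moved with both fat and cholesterol genes. A position score was formed from 4 markers, as the mean z-score (of log2 CPM over the 24 libraries) of Gata4, the transcription factor of the upper small intestine, and Lct, minus that of Fabp6 and the ileal bile acid transporter Slc10a2. It was -3.07, -1.77 and 2.37 in CDmetf and -0.535, 0.511 and 3.79 in HFD, so the groups overlapped and the median score was lower in CDmetf. Summed over the 23 cholesterol genes, CDmetf M1, M2 and M3, with the lowest scores, had the highest sums (3260, 3562 and 3116 CPM). CDmetf F1 and HFD M3, with the highest scores, had the lowest (1544 and 1298 CPM). CDmetf M1, M2 and M3 are also the CDmetf males. Libraries with many Xist reads had 1544, 2306 and 2107 CPM in CDmetf (F1, F2 and F3) and 2207, 1761 and 2121 CPM in HFD (M2, F1 and F3). The rest of HFD (M1, M3 and F2) had 1965, 1298 and 1652 CPM. Sex and score thus ran together in CDmetf, and their parts were not tested. Of the 6 proximal markers, 6 had a negative logFC with a median of -2.08. They include Gata4 and Lct, which are part of the score, and Fabp1 and Rbp2, which also handle fat and retinol. They are therefore not separate support for the score. Slc10a2, itself part of the score, had a logFC of 2.08 ± 0.83 (FDR = 0.669).

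With the position score in the model, chosen after seeing the data, the genes at an unadjusted p under 0.05 went from 984 to 248 in all. Cholesterol genes higher at that p went from 14 to 3 of 23 with a median logFC of 0.22, chylomicron genes lower from 5 to 0 of 17 with a median of -0.20, and fatty acid oxidation genes from 7 lower to 8 lower of 30 with a median of -0.31. Hmgcs1 then had a logFC of 0.52 and Acaa1a of -0.52. Without CDmetf F1 and HFD M3, the libraries with the least Fabp6 in their groups, 17 cholesterol genes were higher and 21 of the 58 fat genes lower. Each also had the highest score of its group (2.37 and 3.79), so leaving both out did not even out position between the groups. These counts therefore cannot tell position from diet or drug. Whether the diets and drug changed the position markers themselves or the tissue was taken at another point was not tested.

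**Figure D2:**
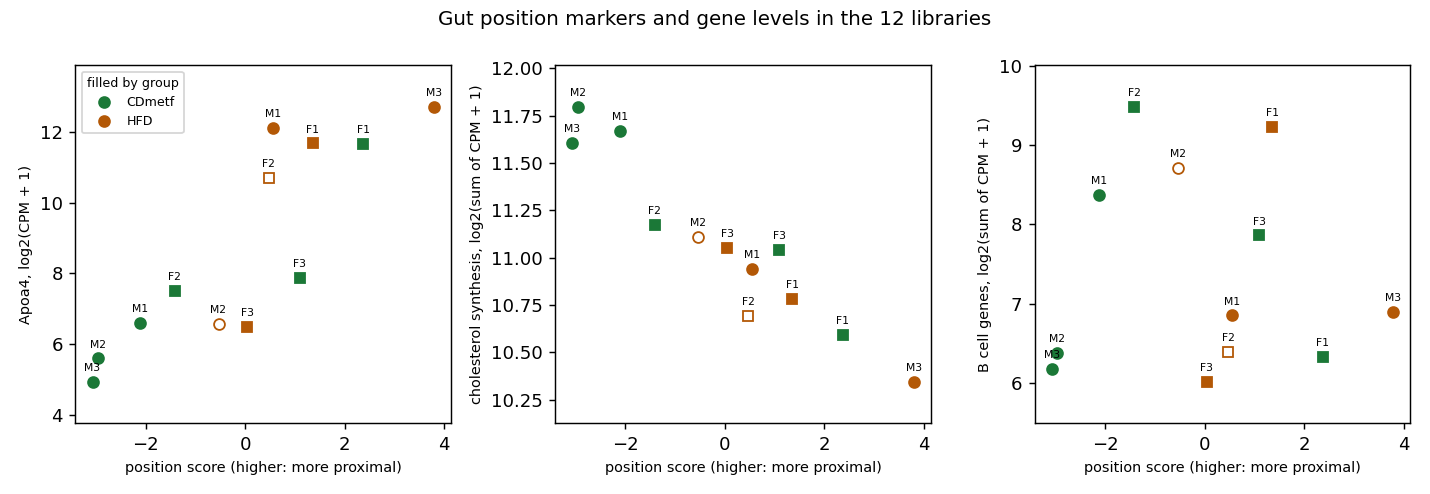
Position score of each library (higher values are more proximal) against Apoa4, the sum of the 23 cholesterol genes and the sum of the 20 B cell genes, each as log2(CPM + 1), with CDmetf in green and HFD in orange, circles for libraries labelled male, squares for female and open symbols for the HFD libraries labelled M2 and F2. The cholesterol sum was highest in CDmetf M1, M2 and M3 at the low end of the score and lowest in HFD M3 at the high end, whereas the B cell sum was highest in CDmetf F2 and HFD F1, at scores of -1.41 and 1.35.

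Other metabolic genes showed smaller or mixed contrasts. In carotenoid and retinoid metabolism, 1 of 12 genes was higher and 4 lower at an unadjusted p under 0.05, against 2.44% and 4.85% of all genes tested. Bco2, a carotenoid-cleaving enzyme of mitochondria, was at 3.52, 13.9 and 44.4 CPM in CDmetf and at 33, 40.1 and 55.1 CPM in HFD (logFC = -1.17 ± 0.42, FDR = 0.635). Retsat, the retinol saturase, had a logFC of -1.08 ± 0.37 and Rbp2, the cellular retinol-binding protein and a proximal marker, of -2.23 ± 0.79 (-1.48 without HFD M3), whereas Isx, the intestinal repressor of carotenoid uptake and cleavage, had 0.53 ± 0.17 (FDR = 0.635). Bco1, the cytosolic carotenoid cleavage enzyme that Isx represses, was at medians of 16 and 5.39 CPM (logFC = 1.11 ± 0.64, FDR = 0.71).

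In sugar transport and metabolism, 1 of 16 genes was higher and 3 lower at an unadjusted p under 0.05, against 2.44% and 4.85% of all genes tested. The fructose transporter Slc2a5 (logFC = -1.10 ± 0.48) and the fructokinase Khk (logFC = -0.75 ± 0.34) were among the lower genes, and hexokinase Hk2 was the higher one (logFC = 0.62 ± 0.24), in 6 of 6 pairs. Of 12 tested genes for metformin transporters and AMPK subunits, 2 were higher and 1 lower at that p, and 11 had a 95% interval within 1 log2 unit of no difference, against 82% of all genes tested. The catalytic AMPK subunits Prkaa1 (logFC = 0.42 ± 0.14, FDR = 0.635) and Prkaa2 (logFC = 0.53 ± 0.21, FDR = 0.667) were the higher ones. Of 11 tested genes of the integrated stress response, 0 passed an unadjusted p of 0.05. Gdf15, the stress hormone released under metformin, was too low to test, at 0 to 1.96 CPM in CDmetf and 0 to 1.26 CPM in HFD.

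**Figure D3:**
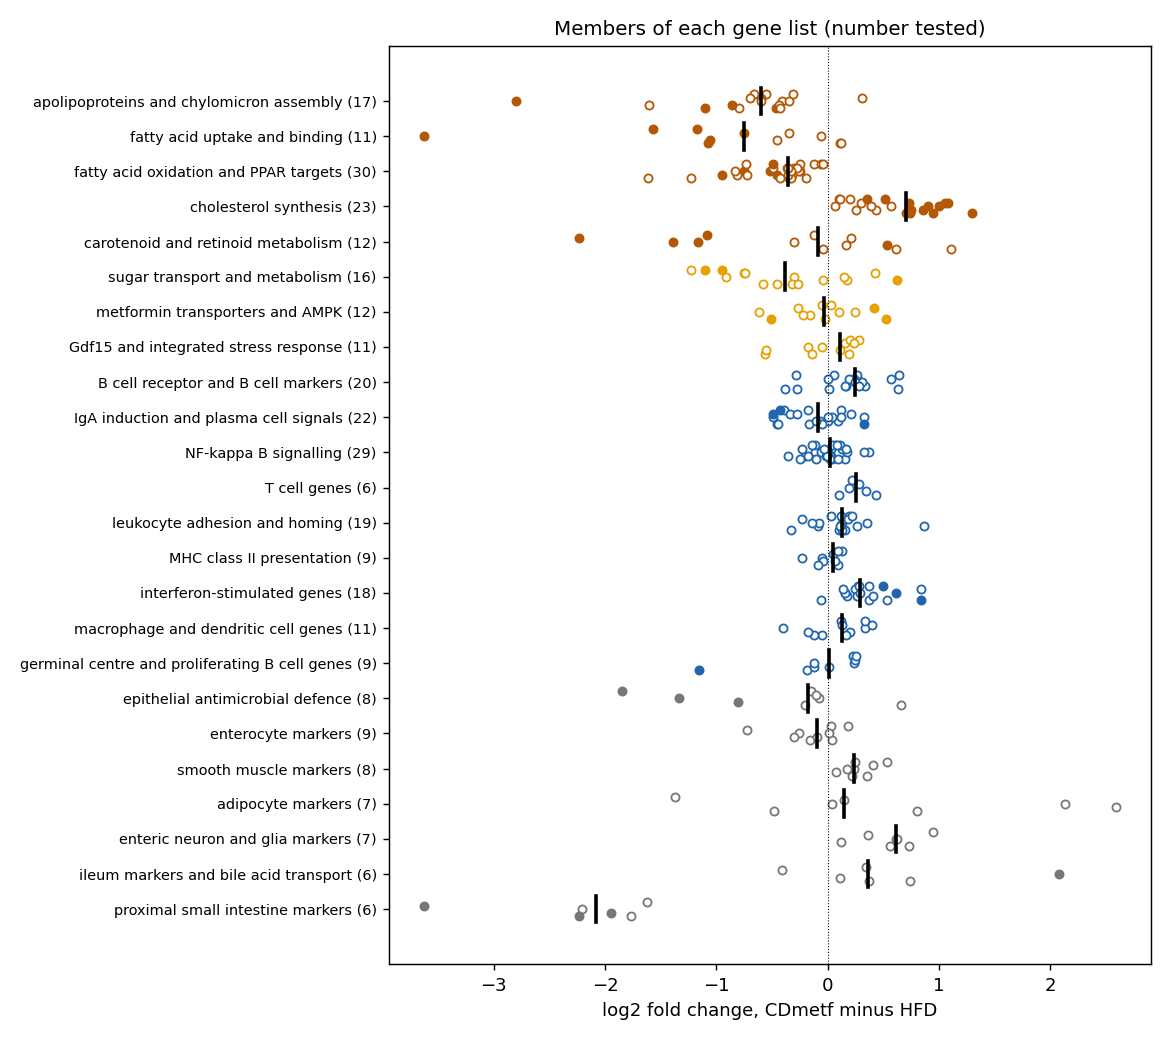
logFC (CDmetf minus HFD, horizontal axis) of each tested member of 24 gene lists, with the number tested in brackets, lipid lists in orange, metabolic in yellow, immune in blue, others in grey, filled symbols for an unadjusted p under 0.05 and a bar at the list median. Fat lists lie to the left of 0, cholesterol synthesis to the right with a median of 0.71, and most immune lists around 0.

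Immune genes as a whole had logFC values nearer 0 than the fat genes, a difference that was not tested, and the intervals were narrow for only some of them. The 9 immune lists held 178 genes, of which 143 were tested. At an unadjusted p under 0.05, 4 were higher and 4 lower in CDmetf, against 2.44% and 4.85% of all genes. Their median logFC was 0.11, and -0.11 without CDmetf F2. The 95% interval lay within 1 log2 unit of no difference for 98 of the 143, 68.5%, against 82% of all genes tested. For the rest, a difference of 1 log2 unit or more was inside the interval. Leaving out 1 library at a time gave 84 to 100 such genes.

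NF-kappa B signalling is the pathway through which many immune receptors act. Of its 29 genes, 25 had an interval within 1 log2 unit (86.2%, near the 82% of all genes), 0 passed an unadjusted p of 0.05, and the median logFC was 0.02. Rela, the p65 subunit, was at 29, 50.2 and 52.7 CPM in CDmetf and at 26.3, 44.5 and 46.6 CPM in HFD. It was higher in CDmetf in 6 of 6 pairs by a small amount (logFC = 0.18, 95% interval -0.11 to 0.47). Rel, the subunit prominent in lymphocytes, had a logFC of 0.15 (95% interval -0.25 to 0.55), Traf6, an adaptor below Toll-like receptors, of 0.03 (-0.18 to 0.25), and Ikbkg, the regulatory subunit of the kinase, of -0.11 (-0.33 to 0.11). Plk2 had the smallest p of the list (logFC = -0.35 ± 0.20, FDR = 0.701).

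B cell genes were the least determined. Of 20 genes of the B cell receptor and B cell markers, all tested, 3 had an interval within 1 log2 unit, and the median width of the intervals was 2.71 log2 units, against 0.84 over all genes. Within CDmetf the median SD of these genes was 1.84 on the log2 CPM scale and within HFD 1.82, against 0.348 and 0.399 over all genes. The summed level of the 20 genes was 71.2, 157 and 715 CPM in CDmetf and 63.5, 116 and 599 CPM in HFD. CDmetf F2 and HFD F1 were the highest of their groups, and the groups overlapped over nearly their whole range. In whole tissue, fewer B cells and less RNA per B cell cannot be told apart.

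Their median logFC of 0.24 depended on single libraries. It was -0.32 without CDmetf F2 and 0.83 without HFD F1. Blnk, an adaptor of B cell receptor signalling that epithelial and myeloid cells also transcribe, was the best determined of the list (logFC = 0.23, 95% interval -0.19 to 0.66), followed by Pou2af1, a transcriptional coactivator of B cells (logFC = 0.16, 95% interval -0.56 to 0.87). The kinase Btk had a logFC of -0.38 (95% interval -1.30 to 0.54) and Ly6d of 0.01 (95% interval -0.96 to 0.98). Against the common CD libraries the median logFC of the list was 2.02 for CDmetf and 1.68 for HFD. Both medians rest on the same CD libraries. The summed level in CD was 48, 88.7 and 168 CPM, so CD overlapped both groups. The highest sums were in CDmetf F2 (715 CPM), HFD F1 (599 CPM) and the library labelled HFD M2 (417 CPM). How far the 2.02 and 1.68 rest on these libraries was not tested.

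**Figure D4:**
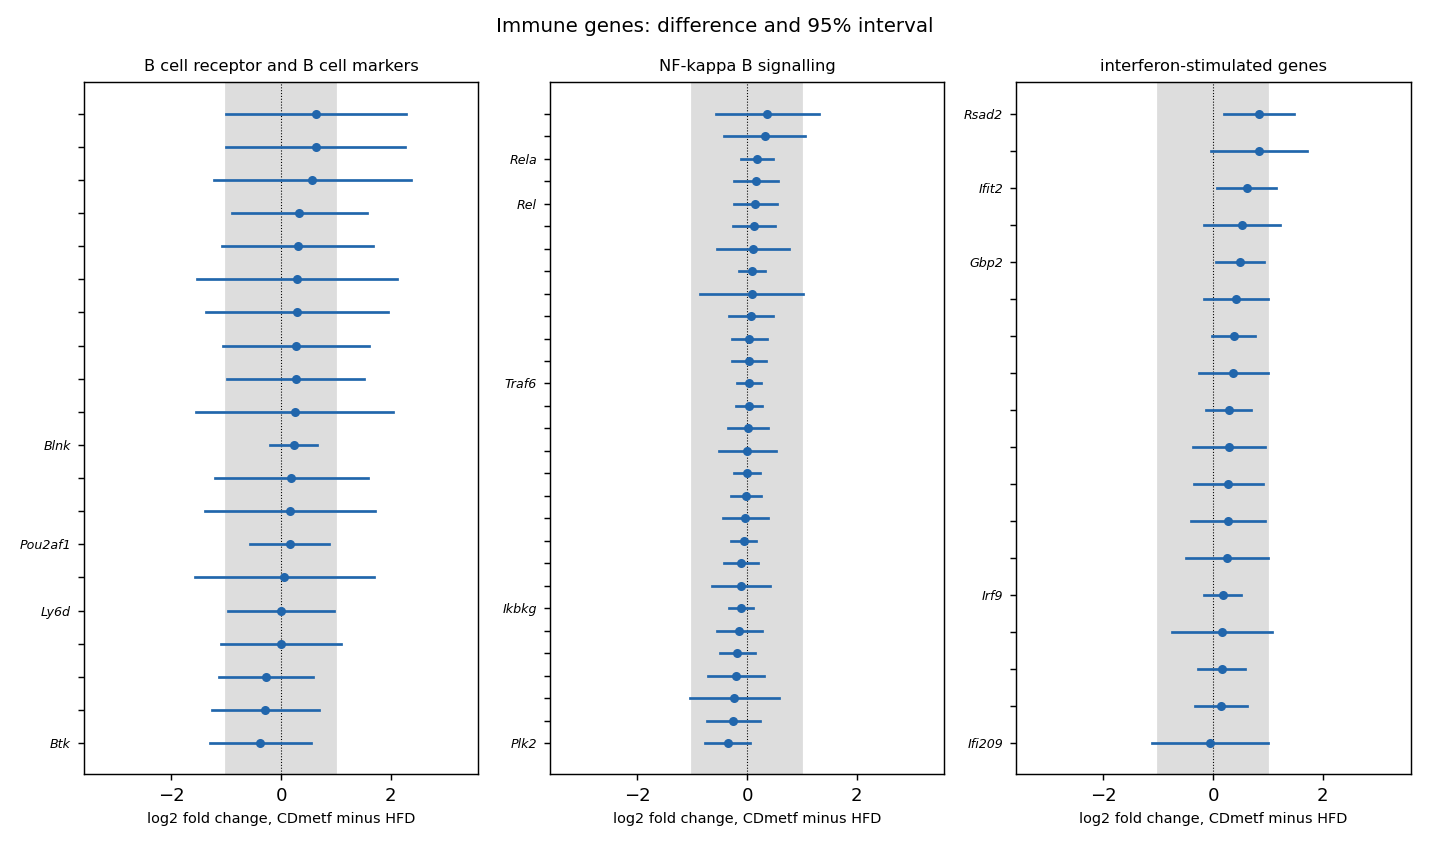
logFC (point, CDmetf minus HFD) and 95% interval (line) of each tested gene of the B cell, NF-kappa B and interferon-stimulated lists, with the range within 1 log2 unit of no difference shaded and only genes named in the text labelled. The intervals of 25 of 29 NF-kappa B genes lie inside the shading, those of 3 of 20 B cell genes do, and 17 of 18 interferon-stimulated genes lie to the right of 0.

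Of 22 tested signals for IgA induction and plasma cells, 19 had an interval within 1 log2 unit (86.4%, near the 82% of all genes), with a median width of 1.24 log2 units against 0.84 over all genes, and 1 was higher and 3 lower at an unadjusted p under 0.05. Sdc1 (syndecan-1), a surface marker of plasma cells that the epithelium also makes, was the higher one (logFC = 0.33 ± 0.14, FDR = 0.669). Ccl25, the epithelial chemokine that draws gut-homing lymphocytes, was lower in 5 of 6 pairs (logFC = -0.45 ± 0.20, FDR = 0.669), as was the lymphotoxin receptor Ltbr in 4 of 6 (logFC = -0.43 ± 0.16, FDR = 0.635). Without the library labelled HFD F2 these values were -0.29 for Ccl25 and -0.27 for Ltbr. Xbp1, the secretory factor of plasma cells and other secretory cells, was at 136, 164 and 216 CPM and at 148, 165 and 251 CPM (95% interval -0.39 to 0.17). Cxcr4, a homing receptor of plasma cells, was at 2.05, 5.39 and 19.7 CPM and at 2.22, 5.74 and 18.1 CPM (logFC = 0.12, 95% interval -0.74 to 0.98).

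Of 18 tested interferon-stimulated genes, 17 had a positive logFC, with a median of 0.29, against 6346 positive of all 13505 genes tested. Of the 18, 3 were higher at an unadjusted p under 0.05, against 2.44% of all genes, and 0 at FDR under 0.05. Rsad2 (viperin), an antiviral enzyme, was at 4.69, 6.61 and 17.3 CPM in CDmetf and at 1.33, 3.92 and 7.50 CPM in HFD (logFC = 0.84 ± 0.30, FDR = 0.635). CDmetf F2 was its highest library and the groups overlapped. Ifit2, which restrains viral translation, was higher in 6 of 6 pairs (logFC = 0.61 ± 0.26, FDR = 0.669) and the guanylate-binding protein Gbp2 in 5 of 6 (logFC = 0.50 ± 0.21, FDR = 0.669, and 0.21 without CDmetf F3). The count was 4 of 20 tested without the HFD libraries labelled M2 and F2, and across single libraries left out it ran from 1, without HFD F1, to 6, without CDmetf M1. It depended more on the tool. With limma-voom 8 of 18 were higher at that p, against 340 of all 13505 genes. All 18 then had a positive logFC, the median was 0.47 and 8 had an interval within 1 log2 unit, against 11 in the main fit. Irf9, which carries the interferon signal to the nucleus, had a 95% interval of -0.16 to 0.51, and Ifi209, a DNA sensor, one of -1.12 to 1.00.

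Of the other immune lists, T cell genes were mostly too low to test, with 6 of 21 tested and 0 past an unadjusted p of 0.05. Cd3e, a chain of the T cell receptor complex, had a logFC of 0.44 (95% interval -0.62 to 1.50), Cd4 of 0.19 (-0.42 to 0.80) and the cytokine receptor Il7r of 0.28 (-0.43 to 0.99). Slamf6 and Il27ra were below the filter, with medians of 2.47 and 1.72 CPM for Slamf6 and 2.06 and 2.21 CPM for Il27ra in CDmetf and HFD. Of macrophage and dendritic cell genes, 9 of 11 were within 1 log2 unit (81.8%, against 82% of all genes tested). They included Csf1r, the growth factor receptor of macrophages (95% interval -0.27 to 0.51), the dendritic integrin Itgax (-0.27 to 0.54) and lysozyme Lyz2 (-0.12 to 0.91). MHC class II genes, 7 of 9 within 1 log2 unit (77.8%, near that 82%), included H2-Aa (-0.29 to 0.55) and H2-Eb1 (-0.38 to 0.47). In leukocyte adhesion, 13 of 19 were within 1 log2 unit (68.4%, below the 82% of all genes). Among them were Itgae, the integrin of intraepithelial lymphocytes, lower in CDmetf in 6 of 6 pairs (-0.64 to 0.18), and Vcam1 (-0.19 to 0.72). The follicle chemokine Cxcl13 was not within 1 log2 unit (logFC = 0.87, 95% interval -0.52 to 2.25).

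In the germinal centre list, 8 of 9 genes were within 1 log2 unit (88.9%, against 82% of all genes tested). Bcl6, the factor that directs the germinal centre, had a 95% interval of -0.60 to 0.22. The exception was Rgs13, a regulator of G protein signalling transcribed in germinal centre B cells and in tuft cells, lower in CDmetf in 6 of 6 pairs at 4.10, 5.89 and 13.1 CPM against 6.02, 10.9 and 63.1 CPM (logFC = -1.16 ± 0.38, FDR = 0.635). HFD M3 held its highest value, and without it the logFC of Rgs13 was -0.56. Epithelial antimicrobial genes gave 3 of 8 lower at an unadjusted p under 0.05, against 4.85% of all genes tested. Duox2, the hydrogen peroxide-producing oxidase, was at 53.4, 149 and 395 CPM in CDmetf and at 99.9, 308 and 1075 CPM in HFD (logFC = -1.33 ± 0.48, FDR = 0.667), its maturation factor Duoxa2 had a logFC of -1.85 ± 0.61 (FDR = 0.635), and Ang4, a Paneth cell ribonuclease, of -0.81 ± 0.27 (FDR = 0.635). Without HFD M3 the logFC was -0.87 for Duox2 and -1.16 for Duoxa2. By the sex labels, the logFC of Duox2 in males minus that in females was -3.12 (FDR = 0.964, edgeR). With the position term, 0 of the 8 passed that p.

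Immunoglobulin V segments varied by animal. Of 348 in the table, 96 were tested. At an unadjusted p under 0.05, 7 were higher and 5 lower, against 2.44% and 4.85% of all genes tested. An interval within 1 log2 unit was found for 0 of the 96, against 82% of all genes, and the logFC ran from -3.73 to 3.98. Reads of such near-identical segments can be split between copies, so single segments are uncertain. Ighv1-7 was at 1.17, 7.78 and 287 CPM in CDmetf and at 0.295, 1.02 and 16 CPM in HFD (logFC = 3.98 ± 1.12, FDR = 0.635). A single library, CDmetf F3, held the value of 287, and the logFC of Ighv1-7 was 1.62 without it and 6.22 without the library labelled HFD F2. Ighv14-3 was at medians of 6.17 and 2.00 CPM (logFC = 2.43 ± 0.61), and Igkv5-48 at 4.46 and 36.6 CPM, lower in CDmetf in 6 of 6 pairs (logFC = -3.42 ± 0.74, FDR = 0.635). Without HFD M1 the logFC of Igkv5-48 was -2.04.

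Outside these lists, groups that did not overlap were rare, with 3 genes higher and 10 lower in CDmetf, 0.0222% and 0.074% of those tested. Tfcp2l1, a transcription factor of epithelia, was higher in CDmetf, as were Chd9 and Rpusd2, which are named after their values were seen. Tfcp2l1 was at 105, 173 and 284 CPM in CDmetf and at 33.7, 86 and 104.1 CPM in HFD, higher in 6 of 6 pairs (logFC = 1.21 ± 0.26, FDR = 0.635). Its lowest CDmetf library, F1, held 321 reads and its highest HFD library, labelled M2, held 319. The gap between the groups is thus within counting error. Without the HFD libraries labelled M2 and F2 the logFC of Tfcp2l1 was 1.14, and with the position term 0.77. Mrpl41, a protein of the mitochondrial ribosome, was at 11.7, 12.7 and 15.7 CPM in CDmetf and at 16.1, 19.6 and 28.8 CPM in HFD, with no overlap (logFC = -0.69 ± 0.16, FDR = 0.635). Gm47528 was also apart (logFC = -3.88 ± 0.97), but at chr9:46239841-46242032 on the minus strand it overlaps Apoa4 on the plus strand, and since the counted strand is not given in the sources used here, its reads cannot be told apart from those of Apoa4.

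Among the genes with the smallest p that moved alike in at least 5 of 6 pairs, Acta1, the actin of striated muscle, was at 0.533, 8.35 and 56.2 CPM in CDmetf and at 0.415, 1.09 and 2.28 CPM in HFD (logFC = 3.13 ± 0.65, FDR = 0.635). CDmetf M1 and M2 held its high values, and the 8 tested smooth muscle markers, a different tissue, had a median logFC of 0.24 with 0 past an unadjusted p of 0.05. Pak2, a kinase of the cytoskeleton, was at 162, 210 and 231 CPM against 125, 147 and 169 CPM (logFC = 0.47 ± 0.11, FDR = 0.635). The microtubule-associated ubiquitin ligase Mid2 (0.75 ± 0.19), the sialomucin Cd164 (0.68 ± 0.17) and the membrane-skeleton gene Frmd3 (1.76 ± 0.45) were also higher. Lower genes were Sec22c, a gene of vesicle traffic at the endoplasmic reticulum (-0.99 ± 0.22), Cdr2 (-1.39 ± 0.33), the galactokinase Galk1 (-0.89 ± 0.21), the oxygen-sensing hydroxylase Egln3 (-1.27 ± 0.30) and the chloride-bicarbonate exchanger Slc26a3 (-0.76 ± 0.18), each at FDR = 0.635. Sec22c was at 20.2, 24 and 47.6 CPM in CDmetf and at 23.5, 56.9 and 74.9 CPM in HFD, with CDmetf F1 again the highest of its group.

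Markers of other cell types gave further values beside these lists. Of 9 enterocyte markers, 8 had an interval within 1 log2 unit (88.9%, against 82% of all genes tested) and the median logFC was -0.10. The 7 adipocyte markers summed to between 29.5 and 382 CPM in CDmetf and between 23.7 and 189 CPM in HFD, and 0 had such an interval. The 7 tested enteric neuron and glia markers all had a positive logFC, with a median of 0.62 and 0 past an unadjusted p of 0.05. Their part in the results above was not tested.

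Whether the contrast differed between the sexes was tested on 14402 genes, and 0 passed FDR under 0.05, with 702 at an unadjusted p under 0.05 and a smallest FDR of 0.597. DESeq2 called 5, of which 3 were Y-linked. The rest were Duox2 (logFC of males minus that of females -3.15, FDR = 0.004) and Ighv1-75 (4.99, FDR = 0.0011). The HFD libraries labelled M2 and F2 enter this test with their labels, which can blunt a difference between the sexes. Without them edgeR also called 0, with only HFD M1, M3, F1 and F3 left. The test was not run with sex read from Xist and Y-linked genes, so the 0 does not show that the sexes were alike. By the labels, logFC of males minus that of females was -6.24 for Fabp1, -0.08 for Acaa1a, 1.08 for Hmgcs1, 0.97 for Nsdhl and 1.62 for Msmo1 (edgeR, 0 at FDR under 0.05).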

How the data were processed

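RNA of the distal small intestine of 24 mice was rRNA-depleted, made into directional libraries and sequenced as paired reads of 100 bases. The authors trimmed reads with Trimmomatic 0.39 (window 5, quality 25, minimum length 30), mapped them to GRCm38 and deposited read counts per gene from STAR 2.5.3a. Annotation release and counted strand are not given in the sources used here. The 4 summary rows of reads not assigned to 1 gene, 35.5% to 75.7% of each of the 24 columns, were left out, and 0 columns belonged to other samples.

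Counts of all 24 libraries were normalized by TMM and tested with edgeR 4.0.16 (quasi-likelihood, R 4.3.3; a model of group with sex and the replicate number as a block, leaving 17 residual degrees of freedom, filterByExpr by group, Benjamini-Hochberg adjustment). Intervals of 95% used the standard error of that fit. CPM used the TMM-scaled library sizes. Alternatives used limma 3.58.1 and DESeq2 1.42.0. The code was tested on simulated data. Symbols were matched for 55450 of 55536 genes, and coordinates are those of GENCODE M21 (GRCm38). Replicate numbers were kept as a block because the study had 3 blocks, although no label says that the numbers are the blocks.

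The groups and the gene lists were chosen with earlier results of these data known. Genes named are the 3 markers, up to 8 genes per direction of smallest p that were at 1 CPM or more on average and moved alike in at least 5 of 6 pairs, the members of smallest p in each list, the immune members of narrowest interval, and a fixed set of genes that the study discussed. Fabp6, Gata4, Lct, Gdf15, Cyp4a31, Cyp4a32, Chd9 and Rpusd2 were added after their values were seen. Some genes that this rule names are not reported here. The study sequenced 1 animal per cage, so p-values measure the spread between animals of separate cages.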

Additional observations from a re-analysis of the deposited data

Results flagged for a closer look

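In 10 of 158 groups of 6 libraries, the highest or lowest library lay apart from the other 5 by more than Dixon's critical value. That value is a gap of over 0.625 of the whole range, taken on the log2 CPM scale. The levels below are given in CPM, on which the gaps differ. Chance flags about 1 in 20 groups. The library labelled HFD M2, whose sex-linked transcripts went against its label, was lowest for Cyp4a10 at 0 CPM (others 1.29 to 4.63), for Acadvl at 37.5 CPM (others 62.8 to 82.6) and for Acaa1b at 1.31 CPM (others 5.89 to 7.97). The library labelled HFD F2, of which the same is true, was highest for Ighv1-7 at 16 CPM (15.95, others 0.295 to 1.31) and lowest for Itgax at 9.31 CPM (others 17.6 to 22.8). CDmetf M2 was highest for Hk2 at 95.8 CPM (others 36.7 to 45.9) and lowest for Igkv5-48 at 0.586 CPM (others 4.13 to 11.7). Sec22c was highest in CDmetf F1 at 47.6 CPM (others 20.2 to 26.2), Rsad2 in CDmetf F2 at 17.3 CPM (others 4.69 to 7.39) and Rgs13 in HFD M3 at 63.1 CPM (others 6.02 to 13.7).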

How the results depend on the processing

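Over 25 alternatives, 21 planned and 4 added after seeing the data, 67 of 79 named genes kept 1 sign of logFC and 12 did not. The count at FDR under 0.05 was 0 except with DESeq2 (6, and 5 for the difference between the sexes), and 0 to 0 when single libraries were left out, for both counts. The 984 genes at an unadjusted p under 0.05 became 1821 with no filter on low counts, 542 without the HFD libraries labelled M2 and F2, 248 with a position term, and 574 (without HFD F2) to 1915 (without HFD F3) when single libraries were left out. Immune genes with an interval within 1 log2 unit numbered 84 to 100 there.

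The replicate numbers were not shown to pair the libraries, since same-numbered libraries of a sex had correlations of -0.144 to 0.169 in their deviations. With no replicate block, 696 genes were at an unadjusted p under 0.05, 0 at FDR under 0.05, 0 differed between the sexes, 91 immune genes lay within 1 log2 unit, 11 of the 58 fat genes were lower, and H2-Eb1 (-0.0093) and Ly6d (-0.0601) turned sign.

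The sign also turned with limma-voom for Tnfrsf13b (0.0296), Cxcr4 (-0.0266), H2-Eb1 (-0.0136) and Ifi209 (0.2251), and with no sex term for Ifi209 (0.0854). Without HFD M2 and HFD F2 it turned for Cxcr4 (-0.033) and Csf1r (-0.132), and without CDmetf F1 and HFD M3 for Tnfrsf13b (0.0093), Cd4 (-0.0169), H2-Eb1 (-0.006) and Ifi209 (0.178). With a position term it turned for Tnfrsf13b (0.1132), Traf6 (-0.0066), Cxcr4 (-0.0258), Ifi209 (0.0551) and Slc10a2 (-0.3883, which is part of the score, so that this follows from its construction), and with a depth term for Ifi209 (0.0062) and Ly6d (-0.029). With single libraries left out, the logFC ranged from -0.4504 to 0.0278 for Tnfrsf13b, -0.2222 to 0.4663 for Cxcr4, -0.6812 to 0.3256 for Ifi209, -0.3644 to 0.3853 for Ly6d, -0.0247 to 0.3667 for Cd4, -0.1474 to 0.4262 for Pou2af1, -0.2336 to 0.743 for Cd3e, -0.1068 to 0.2137 for H2-Eb1 and -0.148 to 0.0013 for Xbp1. The causes were not tested. Depth limits low genes most, and 3 reads correspond to up to 1.33 CPM in the shallowest library.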
